A study of Patiria miniata with 18 samples.

Results

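The loci described here belong to intraflagellar transport (IFT), the traffic of cargo along the microtubules of a cilium, and to the protein groups that work with it, among them the products of the Bardet-Biedl syndrome (BBS) genes. They were measured in larvae of the bat star Patiria miniata that regenerate after being cut across the body. Members were chosen by a rule on gene names, which uses no measured value. Of 31798 expressed loci, 14559 carry a gene name and 91 carry a name of this family, while 80165 loci were counted in all. All 91 passed the filter of more than 3 CPM (the reads of a locus scaled to a common library size) in 2 or more libraries, which the table of names already required. They sit on 78 scaffolds of the P. miniata v1.0 assembly under 35 names, of which 27 are shared by several loci and 8 are not.

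Bipinnaria larvae were bisected at 7 days post-fertilization (dpf). Anterior fragments, posterior fragments and uncut sibling larvae, the controls, were collected about 3 hours after the cut (3 hpb, hours post-bisection, day 0 in the labels) and again 3 and 6 days post-bisection (dpb). The labels give all groups the same culture at 16 °C with algal food and name no genotype or agent, so the fragments and the controls differ by the cut and by the part of the body that each keeps. Each of the 18 libraries holds polyA RNA from a pool of about 300 larvae or fragments, with 2 biological replicates in each of the 9 groups.

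A cilium has no ribosomes, so its parts are made in the cell body and carried in. The IFT-B and IFT-A complexes travel together in trains, which kinesin-2 moves outward and dynein-2 moves back. The BBSome rides on these trains and carries membrane proteins, the transition zone at the ciliary base acts as a gate, and small GTPases such as ARL3 release lipid-linked cargo inside the cilium. These roles are known from Chlamydomonas, nematodes and vertebrates. Bipinnaria larvae swim and feed with motile cilia borne on ciliary bands, which run through the front and the rear of the body.

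The members fall into 6 groups. The IFT-B group has 24 loci under the names Ift20, Ift46, Ift74, Ift80L1, Ift88, Ift172, Ttc26 and Ttc26/Zw10. The IFT-A group has 14 loci, named Ift122/Ift122Ap, Ift122Ap, Ift122h, Ift140, Ttc21b-2, Wdr19 and Wdr35. Bbs1, Bbs2, Bbs4, Bbs5, Bbs6, Bbs7, Bbs8 and Bbs9 make up 21 loci. The motor group has 10 loci, named Dync2h1, Kif17L2, Kif3AL and Kif3a, with spelling as in the table of names. The 17 transition zone loci include Cep290, Mks1L, Nphp4, Rpgrip1L and Tctn2, and the 5 ARL loci include Arl3. Several loci under a shared name may be separate genes or pieces of a gene in a fragmented assembly. They are not independent: 23 members share a gene model with another member, and 13 overlap another expressed locus, whose reads cannot be told apart because it is not stated whether the counting used strand.

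Between 15868104 and 36152675 reads per library fell on loci, and members had a mean count between 32.6 and 8021 over the 18 libraries, with a median of 315. The fragments were checked against markers of body territory. Frizz5/8, a Wnt receptor of the anterior, had 556 and 725 CPM in anterior fragments, against 22.9 and 25.5 CPM in posterior fragments at 3 hpb. The summed level of 17 posterior loci (Frizz9/10, Wnt16, Wnt8, Nk1, Hox11/13a, Hox11/13b and Bra) lay between 94.1 and 218 CPM in the 6 anterior libraries, against 482 to 790 CPM in the 6 posterior libraries. Both sets separated the anterior from the posterior libraries at every time, as labelled. The summed level of 23 digestive gut loci at 3 hpb was 4610 and 1524 CPM in anterior against 4024 and 4672 CPM in posterior fragments. The first anterior library thus lay within the posterior values. At 3 dpb the sum was 430 and 933 CPM in anterior against 1957 and 3108 CPM in posterior fragments. At 6 dpb it was 355 and 888 CPM against 1085 and 2149 CPM. Of 46 nerve cell loci, 30, 33 and 30 had values above 0 in anterior over posterior fragments at the successive times, with medians of 0.23, 0.26 and 0.25 on the log2 scale. Medians over all tested loci in that comparison are given below. The 2 muscle loci had medians of -0.35, -0.07 and -0.04 in that comparison. Their summed level at 3 hpb went the other way, with 860 and 1464 CPM in anterior against 812 and 1260 CPM in posterior fragments. At 3 and 6 dpb the sum was lower in anterior fragments in replicate 1 and higher in replicate 2. The part of these cell types in the results below was not tested. In pooled tissue, fewer cells of a type and less RNA per cell cannot be told apart.

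Levels between loci are compared per length, as reads per kilobase of exon scaled by library size (RPKM, mean over 18 libraries). The motor Kif3AL XLOC_067840 had the highest level of all members, 56.9 RPKM, followed by its neighbour Kif3AL XLOC_067845 with 28.1 RPKM. Ift74 XLOC_064732 led the IFT-B group with 23.1 RPKM, close to Ift20 with 22.8 RPKM. The highest loci of the BBS, IFT-A and transition zone groups were Bbs2 XLOC_047803 with 15.05 RPKM, Wdr35 XLOC_027457 with 12.8 RPKM and Mks1L with 11.99 RPKM. Group medians were 14.6 RPKM for ARL, 7.73 RPKM for motors, 5.52 RPKM for IFT-B, 5.23 RPKM for BBS, 5.22 RPKM for IFT-A and 2.39 RPKM for the transition zone.

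The second replicate of each group tended to hold more of these transcripts than the first. The median difference of replicate 2 minus replicate 1 over the members ranged between 0.22 in posterior fragments and 0.66 in uncut controls, both at 6 dpb, on the log2 CPM scale. Over all tested loci it lay between -0.07 and 0.00. Across all loci, libraries of the same replicate number deviated together from their group means, with r of 0.74 to 0.92 within a time point and 0.18 to 0.68 between time points. The study's methods control for sample batch without defining it, and the fit here took the replicate number as that block, for all times together, in edgeR's quasi-likelihood test. Adjusted p-values are Benjamini-Hochberg values over all 31798 loci, and a locus was called under 0.05. A second fit gave each time point its own replicate block. It made many more calls, and its values are given where they change a call. A fold change and its SE belong to the fit whose adjusted p follows them first, and those with no p, like all medians, to the fit with a common block unless the other is named.

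Most members had a higher level in anterior than in posterior fragments at every time, with medians of 0.44 at 3 hpb, 0.40 at 3 dpb and 0.47 at 6 dpb on the log2 scale. The medians over all tested loci were 0.11, 0.02 and -0.02 at these times. Of the 91 members, 77, 83 and 72 had a value above 0 at the successive times, and 66 had it at all 3. How many of all loci kept that direction at all 3 times was not counted. The fit with a common block called 1 member at 6 dpb (1.6% of all loci were called higher) and none before (0.884% at 3 hpb and 0.667% at 3 dpb), while 4.41%, 2.92% and 2.73% of all loci were called lower at 3 hpb, 3 dpb and 6 dpb. At an unadjusted p under 0.05, 16, 18 and 32 members were higher and 0 lower at these times. Among all loci 5.84%, 5.29% and 7.41% were higher and 9.04%, 6.07% and 6.75% lower by that measure. By the rule for differentially expressed genes that the study used, a change beyond 2-fold with an unadjusted p under 0.05, 0, 0 and 4 members were higher (2.82%, 2.51% and 5.05% of all loci) and 0 lower (7.47%, 5.11% and 5.71%). With the block within each time point, 5 members were called higher at 3 hpb (3.76% of all loci), 5 at 3 dpb (2.56%) and 22 at 6 dpb (7.23%). In that fit 0 members were called lower, where 5.68% of all loci were at 6 dpb. DESeq2's Wald test called 5, 4 and 15 members and 2.09%, 1.7% and 4.25% of all loci higher. The values of both anterior libraries lay above both posterior libraries in 25 members at 3 hpb, 31 at 3 dpb and 35 at 6 dpb, where 13.7%, 12.2% and 16% of all loci did so.

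**Figure D1:**
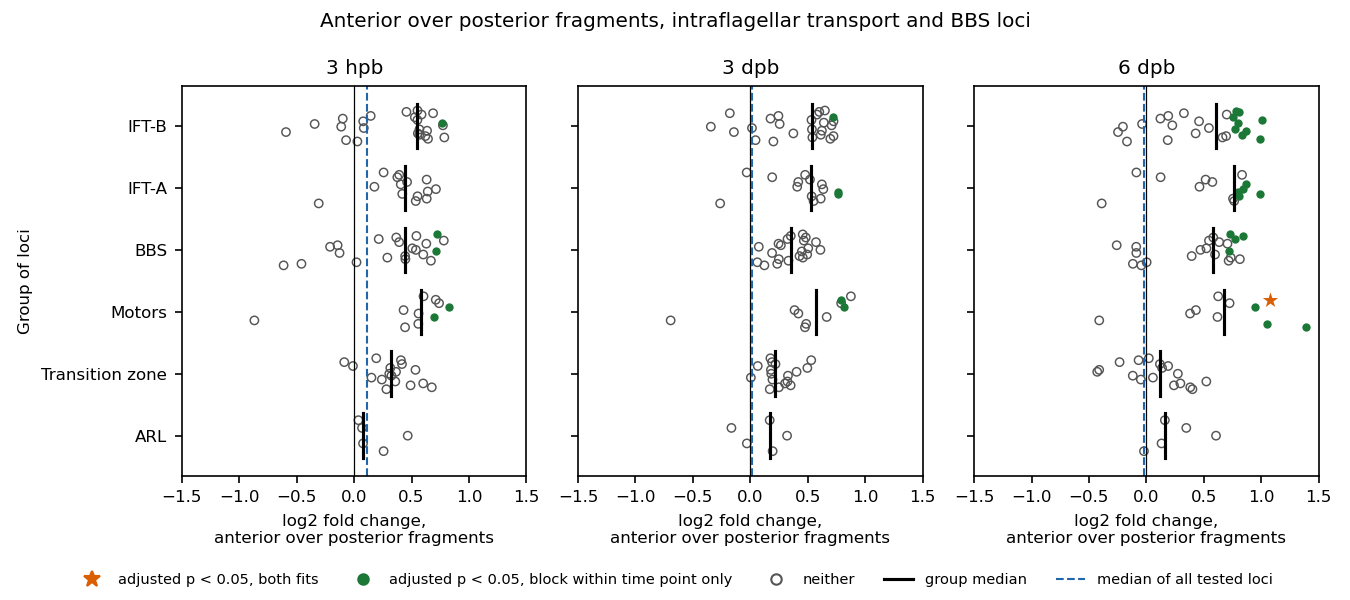
Log2 fold change of each member in anterior over posterior fragments (horizontal axis) by group of loci (vertical axis) at the 3 times, with black bars for group medians and a dashed line for the median of all tested loci. At 6 dpb the IFT-A median was 0.76 and the BBS median 0.58, and the star marks Dync2h1 XLOC_013115 at 1.07.

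Against uncut controls, most members had negative values in posterior fragments. Their medians at the successive times were -0.31, -0.22 and -0.51, with 18, 19 and 19 of 91 members above 0. Below their controls at all 3 times were 49 members, and for all loci this too was not counted. With a common block edgeR called 0 members at any time, where it called 0.0252% of all loci higher and 0.0409% lower at 3 hpb, 0% in both directions at 3 dpb, with 0.00629% lower and 0% higher at 6 dpb. There were 12, 0 and 37 members lower at an unadjusted p under 0.05 (5.7%, 1.58% and 6.08% of all loci), and 0 higher (5.32%, 1.19% and 3.01%). By the 2-fold rule 2, 0 and 6 members were lower (3.25%, 1.01% and 3.38% of all loci) and 0 higher (3.47%, 0.78% and 2.02%). With the block within each time point, 4 members were called lower at 3 hpb (1.86% of all loci) and 13 at 6 dpb (3.3%), and 0 at 3 dpb (0.23%). DESeq2 called 3, 0 and 8 members and 0.805%, 0.214% and 1.69% of all loci lower. Both posterior libraries lay below both controls in 26 members at 3 hpb (14.5% of all loci), 20 at 3 dpb (9.76%) and 31 at 6 dpb (13.9%).

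Anterior fragments were next set against the controls. Their medians at the 3 times were 0.10, 0.21 and -0.03, and 51, 73 and 40 of 91 members were above 0. The value at 3 hpb turned to -0.30 when libraries were scaled by size alone, with the median of all loci at -0.44 under that scaling, and the medians of IFT-B, IFT-A and ARL turned likewise, to -0.31, -0.22 and -0.11. In posterior over control that scaling moved the median of all loci to -0.40 at 3 hpb and 0.15 at 6 dpb, and in anterior over posterior to -0.15 at 6 dpb. At 3 hpb, 2 members were called higher and 1 lower with a common block (2.31% and 4.76% of all loci), and 9 higher and 7 lower with the block within each time point (12.5% and 14.5% of all loci). Neither share of the members stood above that of all loci. Of the 9 higher loci 7 were motors, under the names Dync2h1, Kif3AL and Kif17L2. DESeq2 called 5 members higher and 2 lower (6.47% and 7.35% of all loci). At an unadjusted p under 0.05, 7 were higher and 8 lower (11% and 13.5% of all loci), of which 2 and 4 changed more than 2-fold (7.3% and 10.1%). At 3 and 6 dpb 0 members were called by either edgeR fit or by DESeq2 in either direction, and 0 reached an unadjusted p under 0.05. DESeq2 called 0.148% and 0.233% of all loci higher and 3.13% and 3.03% lower at these times. Among all loci 1.03% and 0.978% were higher and 4.71% and 4.51% lower at that p at 3 and 6 dpb, and 0.538% and 0.632% higher and 4.26% and 4.12% lower by the 2-fold rule. With a common block, 0.0189% of all loci were called higher and 2.24% lower at 3 dpb, and 0.044% and 2.15% at 6 dpb. The share called with the block within each time point at these times is not given here. Both anterior libraries lay above both controls in 11, 16 and 3 members at the successive times (17.4%, 8.65% and 7.7% of all loci) and below them in 12, 1 and 4 (20%, 10.5% and 9.69%).

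**Figure D2:**
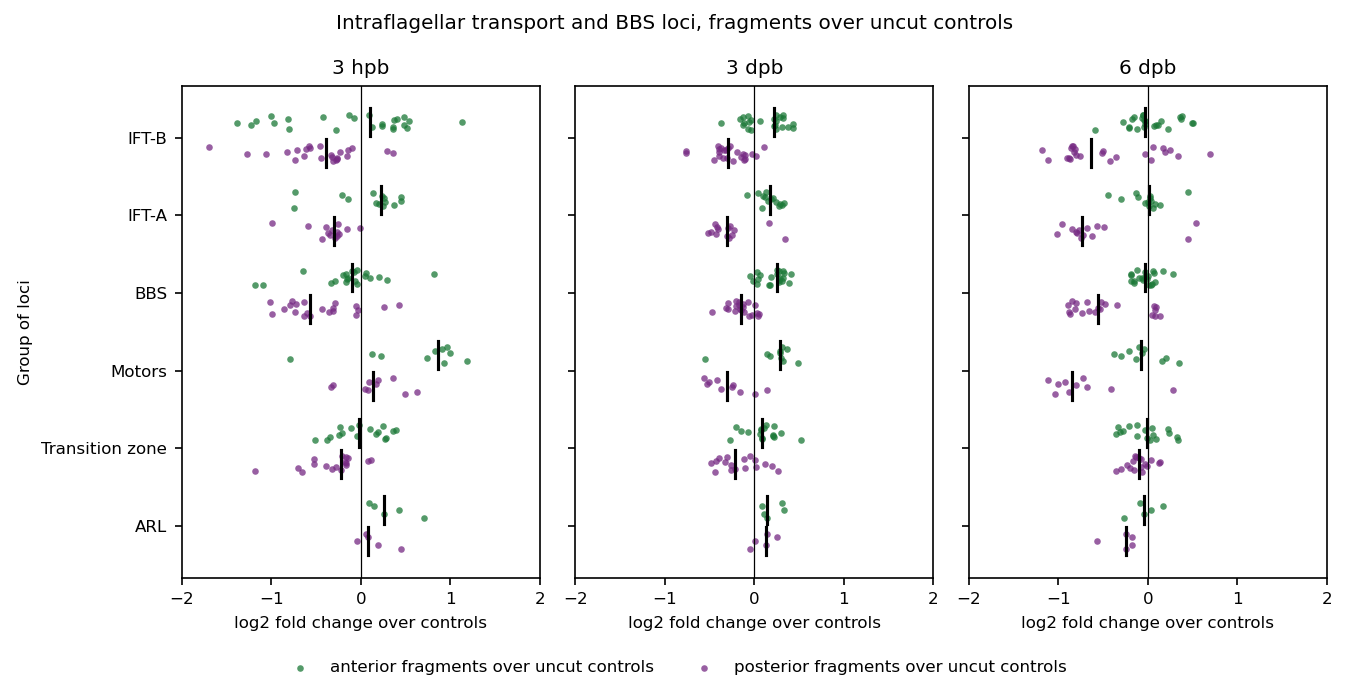
Log2 fold change of each member over uncut controls of the same time (horizontal axis), by group of loci (vertical axis), with anterior fragments in green above posterior fragments in purple and black bars for group medians. Motor loci had a median of 0.87 in anterior fragments at 3 hpb and of -0.84 in posterior fragments at 6 dpb.

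The motors had the highest median of the 6 groups in anterior fragments over controls at 3 hpb and the lowest in posterior fragments over controls at 6 dpb. In anterior over control their medians were 0.87, 0.29 and -0.08 at the 3 times, in posterior over control 0.13, -0.31 and -0.84, and in anterior over posterior 0.58, 0.58 and 0.67. Scaled by library size alone the 3 hpb medians were 0.43 in anterior and -0.26 in posterior fragments over controls, so the sign of the posterior value depended on the scaling.

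Dync2h1 encodes the heavy chain of dynein-2, the motor that returns IFT trains to the base, and has 4 loci on 4 scaffolds. XLOC_013115 and XLOC_042691 share the source name Dync2h1_1, and XLOC_010488 and XLOC_029156 share Dync2h1_2. Whether loci of a shared source name are separate genes was not tested. Dync2h1 XLOC_013115 (scaffold 13777, 154 to 24834, + strand) had 74.2 and 122 CPM in anterior fragments, 40.4 and 83.4 CPM in posterior fragments and 34.2 and 74.8 CPM in controls at 3 hpb. At 3 dpb this locus had 65.0 and 139 CPM in anterior fragments, 42.1 and 72.2 CPM in posterior fragments and 61.5 and 87.3 CPM in controls. At 6 dpb this locus had 51.8 and 114 CPM in anterior fragments, 29.0 and 46.0 CPM in posterior fragments and 56.6 and 111 CPM in controls. Within each replicate the anterior value exceeded the posterior value at every time, and at 6 dpb both posterior libraries lay below all others. The locus was higher in anterior fragments than in controls at 3 hpb (log2 fold change 0.91 ± 0.23 SE, adjusted p = 0.0387 by edgeR, 0.0106 with the block within each time point), although replicate 2 of the controls lay slightly above replicate 1 of the anterior fragments. At 6 dpb it was higher in anterior than in posterior fragments (1.07 ± 0.23, adjusted p = 0.0224 by edgeR, 0.00657 with the block within each time point). It fell in posterior fragments relative to controls at 6 dpb only with the block within each time point (-1.11 ± 0.21, adjusted p = 0.0187 by edgeR, against 0.162 with a common block). In the same fit it was higher in anterior than in posterior fragments at 3 dpb (0.80, adjusted p = 0.0436).

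Dync2h1 XLOC_042691 (scaffold 3419, 1 to 15621, - strand) had 55.2 and 78.1 CPM in anterior fragments, 27.3 and 50.9 CPM in posterior fragments and 21.5 and 50.1 CPM in controls at 3 hpb. At 3 dpb XLOC_042691 had 43.1 and 84.5 CPM in anterior fragments, 28.9 and 39.7 CPM in posterior fragments and 40.5 and 59.8 CPM in controls. At 6 dpb XLOC_042691 had 29.5 and 68.5 CPM in anterior fragments, 16.7 and 33.2 CPM in posterior fragments and 32.6 and 68.1 CPM in controls. The anterior libraries stood above the controls without overlap at 3 hpb, and each exceeded the posterior library of its replicate at all times. It was higher in anterior fragments than in controls at 3 hpb (1.00 ± 0.26, adjusted p = 0.0390 by edgeR, 0.00775 with the block within each time point). Only the block within each time point called it higher in anterior than in posterior fragments at 3 hpb, 3 dpb and 6 dpb (0.83, 0.84 and 0.93, adjusted p = 0.0292, 0.0385 and 0.0150 by edgeR). In posterior fragments at 6 dpb it fell by 1.00 on the log2 scale relative to controls in that fit (adjusted p = 0.0295 by edgeR, against 0.225 with a common block).

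The calls of both loci over controls at 3 hpb rest on every library of that comparison. For XLOC_013115 the adjusted p by edgeR was 0.119 and 0.0818 without the first and the second anterior library, and 0.147 and 0.108 without the first and the second control. For XLOC_042691 it was 0.147 and 0.0576 without these anterior libraries, and 0.165 and 0.0932 without these controls. The call of XLOC_013115 in anterior over posterior fragments at 6 dpb was likewise lost without either anterior library (adjusted p = 0.0580 and 0.189 by edgeR) or either posterior library (0.0728 and 0.258).

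The other Dync2h1 loci are on scaffolds of their own. Dync2h1 XLOC_010488 had 30.3 and 41.7 CPM in anterior fragments, 16.7 and 33.1 CPM in posterior fragments and 9.96 and 30.7 CPM in controls at 3 hpb. At 3 dpb XLOC_010488 had 26.6 and 55.1 CPM in anterior fragments, 17.0 and 25.8 CPM in posterior fragments and 24.7 and 38.7 CPM in controls. At 6 dpb XLOC_010488 had 18.2 and 30.9 CPM in anterior fragments, 13.4 and 17.3 CPM in posterior fragments and 20.2 and 31.6 CPM in controls. Both posterior libraries lay below the anterior and the control libraries at 6 dpb. Dync2h1 XLOC_029156 had 33.9 and 42.9 CPM in anterior fragments, 16.8 and 31.8 CPM in posterior fragments and 14.3 and 32.5 CPM in controls at 3 hpb. At 3 dpb XLOC_029156 had 26.2 and 52.7 CPM in anterior fragments, 18.3 and 24.9 CPM in posterior fragments and 24.9 and 37.3 CPM in controls. At 6 dpb XLOC_029156 had 16.0 and 35.8 CPM in anterior fragments, 11.3 and 18.9 CPM in posterior fragments and 20.1 and 38.4 CPM in controls. Its anterior libraries stood above all others at 3 hpb, and the first control library was the lowest of the 6 libraries of that time for all 4 Dync2h1 loci. Both loci were called higher in anterior fragments than in controls at 3 hpb only with the block within each time point (1.01 ± 0.26 and 0.83 ± 0.24, adjusted p = 0.0174 and 0.0267, against 0.0709 and 0.0790 with a common block, edgeR).

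KIF3A is a motor subunit of heterotrimeric kinesin-2, which drives IFT outward. Kif3AL XLOC_067840 (scaffold 718, 48603 to 70668, + strand) had 748 and 906 CPM in anterior fragments, 446 and 741 CPM in posterior fragments and 330.4 and 398 CPM in controls at 3 hpb. At 3 dpb XLOC_067840 had 217 and 668 CPM in anterior fragments, 156 and 474 CPM in posterior fragments and 203 and 473 CPM in controls. At 6 dpb XLOC_067840 had 210.5 and 592 CPM in anterior fragments, 127 and 237 CPM in posterior fragments and 226 and 454 CPM in controls. At 3 hpb both anterior libraries lay above both posterior libraries, and these above both controls, while at the later times replicate 2 exceeded replicate 1 in each group and the groups overlapped. In anterior fragments over controls at 3 hpb the log2 fold change was 1.18 ± 0.36, with an adjusted p of 0.0712 by edgeR and 0.00349 with the block within each time point. The change in posterior fragments over controls was 0.62 at 3 hpb and -0.89 at 6 dpb, and that of 6 dpb passed with the block within each time point (-0.88, adjusted p = 0.0469 by edgeR, against 0.456 with a common block). In anterior over posterior fragments at 6 dpb it was 1.05 ± 0.36 (adjusted p = 0.158 by edgeR, 0.00966 with the block within each time point).

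The neighbouring Kif3AL XLOC_067845 (71428 to 72100 on the same scaffold, of the same gene model) had 28.6 and 42.7 CPM in anterior fragments, 19.6 and 35.1 CPM in posterior fragments and 16.0 and 19.9 CPM in controls at 3 hpb. At 3 dpb XLOC_067845 had 10.5 and 32.2 CPM in anterior fragments, 7.40 and 23.5 CPM in posterior fragments and 8.89 and 19.4 CPM in controls. At 6 dpb XLOC_067845 had 5.62 and 31.0 CPM in anterior fragments, 2.89 and 9.85 CPM in posterior fragments and 5.24 and 22.2 CPM in controls. The anterior libraries lay above the controls without overlap at 3 hpb alone. Its anterior over posterior value at 6 dpb, 1.39 ± 0.47, was the largest of all members in that comparison and passed only with the block within each time point (1.33 ± 0.24, adjusted p = 0.00385 by edgeR, against 0.146 with a common block). It was also called in that fit over controls, in anterior fragments at 3 hpb (0.97, adjusted p = 0.0115) and in posterior fragments at 6 dpb (-1.02, adjusted p = 0.0388).

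Kif17L2 is named after the homodimeric kinesin-2 of vertebrate and nematode cilia. Its locus XLOC_057061 had 16.8 and 22.8 CPM in anterior fragments, 10.6 and 13.7 CPM in posterior fragments and 11.4 and 11.7 CPM in controls at 3 hpb. At 3 dpb XLOC_057061 had 10.3 and 18.6 CPM in anterior fragments, 5.71 and 12.99 CPM in posterior fragments and 7.74 and 16.2 CPM in controls. At 6 dpb XLOC_057061 had 7.14 and 10.8 CPM in anterior fragments, 4.26 and 7.66 CPM in posterior fragments and 5.59 and 10.4 CPM in controls. Both anterior libraries stood above all others at 3 hpb. It was called higher in anterior fragments at 3 hpb over controls (0.76 ± 0.20, adjusted p = 0.0175) and over posterior fragments (0.70 ± 0.20, adjusted p = 0.0427) with the block within each time point of edgeR, and in neither comparison with a common block. The Kif3a loci XLOC_043150 and XLOC_055455 and the second Kif17L2 locus, XLOC_057062, were called in no comparison. XLOC_057062, at 0.474 to 3.65 CPM, ran against the group with -0.79 in anterior over control at 3 hpb.

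**Figure D3:**
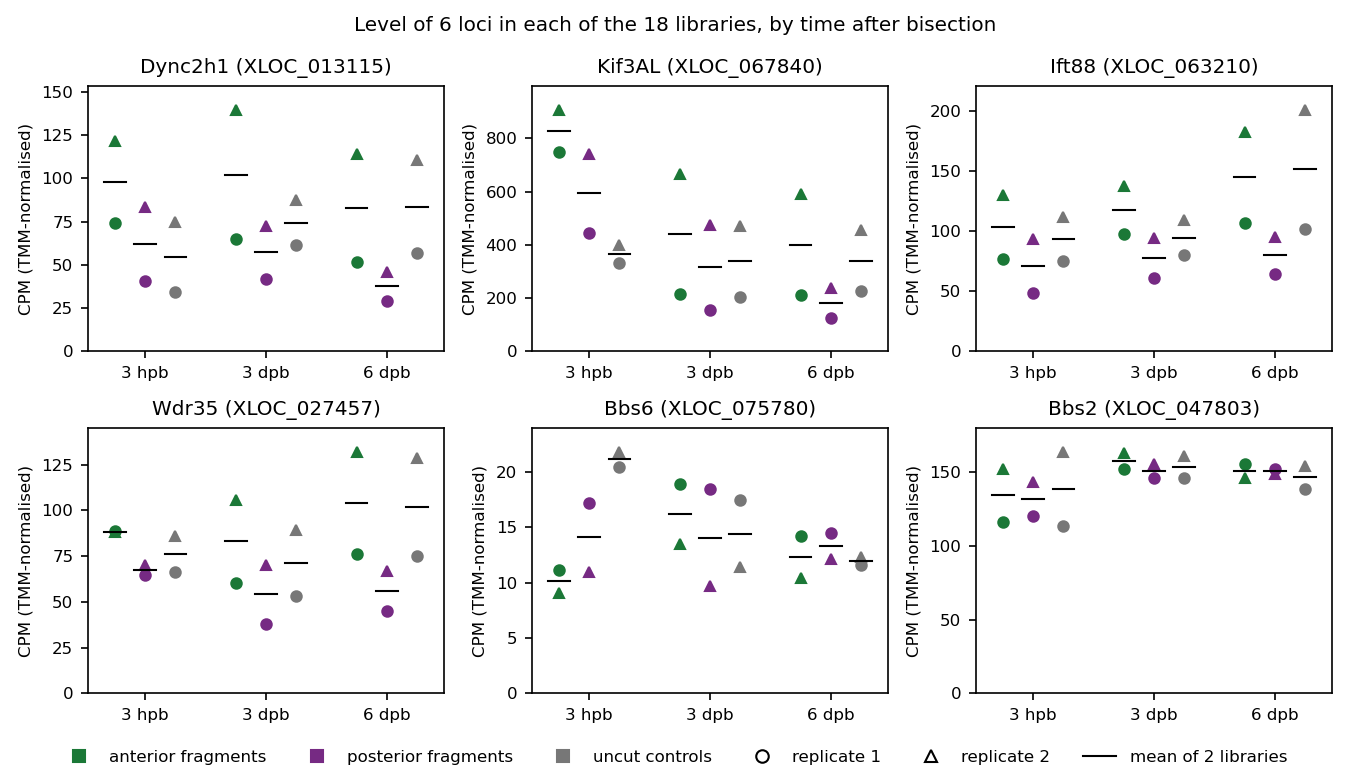
CPM of 6 loci (vertical axes, starting at 0) in each library by time after bisection (horizontal axis), with colours for anterior fragments, posterior fragments and uncut controls, symbols for the replicates and bars for means of 2 libraries. Kif3AL XLOC_067840 reached 748 and 906 CPM in anterior fragments at 3 hpb, Ift88 had 64.4 and 95.4 CPM in posterior fragments at 6 dpb, and Bbs2 XLOC_047803 lay between 113 and 163 CPM in all 18 libraries.

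The IFT-B loci had medians of 0.10, 0.22 and -0.03 in anterior over control, -0.39, -0.30 and -0.63 in posterior over control and 0.55, 0.54 and 0.60 in anterior over posterior at the 3 times. IFT88, a core subunit without which Chlamydomonas and mouse cells build no normal cilia, has 1 locus. Ift88 had 76.9 and 129.8 CPM in anterior fragments, 48.4 and 93.2 CPM in posterior fragments and 75.4 and 112 CPM in controls at 3 hpb. At 3 dpb Ift88 had 98.0 and 138 CPM in anterior fragments, 61.3 and 94.6 CPM in posterior fragments and 80.3 and 109 CPM in controls. At 6 dpb Ift88 had 107 and 183 CPM in anterior fragments, 64.4 and 95.4 CPM in posterior fragments and 102 and 201 CPM in controls. Each posterior library was below the anterior and the control library of its replicate at each time, without overlap with either group at 6 dpb. There the log2 fold change of anterior over posterior was 0.83 ± 0.22 (adjusted p = 0.0546 by edgeR, 0.0130 with the block within each time point), and that of posterior over control -0.88 ± 0.22 (adjusted p = 0.219 by edgeR, 0.0294 with the block within each time point).

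IFT172, IFT80 and IFT20 belong to the outer part of the complex. Ift172 XLOC_038668 had 26.8 and 64.6 CPM in anterior fragments, 14.1 and 41.4 CPM in posterior fragments and 20.4 and 40.6 CPM in controls at 3 hpb. At 3 dpb XLOC_038668 had 27.1 and 56.1 CPM in anterior fragments, 16.6 and 37.6 CPM in posterior fragments and 26.0 and 41.1 CPM in controls. At 6 dpb XLOC_038668 had 25.4 and 49.9 CPM in anterior fragments, 16.3 and 25.3 CPM in posterior fragments and 24.6 and 53.4 CPM in controls. The anterior libraries lay above the posterior ones without overlap at 6 dpb. Ift172 XLOC_044819 had 35.5 and 68.7 CPM in anterior fragments, 20.6 and 48.3 CPM in posterior fragments and 28.3 and 44.4 CPM in controls at 3 hpb. At 3 dpb XLOC_044819 had 34.1 and 56.5 CPM in anterior fragments, 20.4 and 39.7 CPM in posterior fragments and 31.9 and 43.1 CPM in controls. At 6 dpb XLOC_044819 had 34.7 and 66.7 CPM in anterior fragments, 21.9 and 31.4 CPM in posterior fragments and 31.6 and 62.4 CPM in controls. Here both posterior libraries lay below the controls as well at 6 dpb. Each anterior library of both Ift172 loci exceeded the posterior library of its replicate at every time.

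Ift80L1 XLOC_025376 had 28.4 and 71.1 CPM in anterior fragments, 16.8 and 54.2 CPM in posterior fragments and 27.4 and 40.9 CPM in controls at 3 hpb. At 3 dpb XLOC_025376 had 29.0 and 49.9 CPM in anterior fragments, 18.8 and 37.2 CPM in posterior fragments and 25.5 and 41.4 CPM in controls. At 6 dpb XLOC_025376 had 21.8 and 61.9 CPM in anterior fragments, 13.7 and 24.7 CPM in posterior fragments and 22.7 and 74.4 CPM in controls. The groups overlapped at each time, as replicate 2 was above replicate 1 in all of them. Ift80L1 XLOC_065864 had 27.7 and 59.6 CPM in anterior fragments, 15.3 and 43.1 CPM in posterior fragments and 27.6 and 34.1 CPM in controls at 3 hpb. At 3 dpb XLOC_065864 had 28.5 and 42.6 CPM in anterior fragments, 15.9 and 29.6 CPM in posterior fragments and 24.8 and 34.4 CPM in controls. At 6 dpb XLOC_065864 had 19.1 and 54.8 CPM in anterior fragments, 11.7 and 23.2 CPM in posterior fragments and 18.6 and 63.9 CPM in controls. These values follow those of the first Ift80L1 locus, with the same overlap. The Ift80L1 loci had log2 fold changes of -1.18 ± 0.32 and -1.11 ± 0.36 in posterior over control at 6 dpb. The first passed with the block within each time point (-1.15 ± 0.28, adjusted p = 0.0435 by edgeR, against 0.251 with a common block), and the second did not (0.0588).

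Ift20 XLOC_040192 had 70.2 and 111 CPM in anterior fragments, 44.7 and 78.9 CPM in posterior fragments and 71.3 and 76.0 CPM in controls at 3 hpb. At 3 dpb Ift20 had 63.7 and 104 CPM in anterior fragments, 44.6 and 70.9 CPM in posterior fragments and 52.6 and 68.7 CPM in controls. At 6 dpb Ift20 had 65.2 and 114 CPM in anterior fragments, 42.0 and 60.6 CPM in posterior fragments and 65.6 and 118 CPM in controls. At 6 dpb both posterior libraries of Ift20 lay below the other 4. The Ift172, Ift80L1 and Ift20 loci were called higher in anterior than in posterior fragments at 6 dpb with the block within each time point, by 0.77 to 0.98 on the log2 scale and with adjusted p between 0.0214 and 0.0470 by edgeR. With a common block the values were 0.0681 to 0.182. Ift172 XLOC_038668 also passed at 3 hpb (0.78 ± 0.22, adjusted p = 0.0391 by edgeR with the block within each time point).

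IFT74 binds tubulin together with IFT81 in human cells. Ift74 XLOC_064732 had 23.3 and 44.9 CPM in anterior fragments, 13.4 and 26.3 CPM in posterior fragments and 22.3 and 21.4 CPM in controls at 3 hpb. At 3 dpb Ift74 XLOC_064732 had 19.3 and 31.1 CPM in anterior fragments, 12.5 and 22.6 CPM in posterior fragments and 16.1 and 19.9 CPM in controls. At 6 dpb Ift74 XLOC_064732 had 14.6 and 37.6 CPM in anterior fragments, 13.8 and 16.0 CPM in posterior fragments and 16.9 and 43.2 CPM in controls. Its anterior libraries lay above the controls without overlap at 3 hpb and its posterior libraries below them at 6 dpb. Neither this locus, the other Ift74 loci XLOC_013630 and XLOC_064728, nor Ift46 XLOC_059667 was called in any comparison.

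TTC26, also called IFT56, carries proteins of motility into the cilium in Chlamydomonas and zebrafish. Its name stands on 14 loci, 1 of them joined to the name Zw10, and these split by level. The 3 loci with a mean count of at least 400, a boundary set after the values were seen, had the direction of the IFT-B medians in posterior over control and anterior over posterior at all times. Ttc26 XLOC_002241 had 65.3 and 47.5 CPM in anterior fragments, 41.0 and 36.1 CPM in posterior fragments and 56.9 and 49.3 CPM in controls at 3 hpb. At 3 dpb XLOC_002241 had 52.5 and 61.7 CPM in anterior fragments, 35.9 and 36.8 CPM in posterior fragments and 49.0 and 47.5 CPM in controls. At 6 dpb XLOC_002241 had 38.1 and 50.7 CPM in anterior fragments, 24.2 and 27.4 CPM in posterior fragments and 35.0 and 57.6 CPM in controls. The posterior libraries did not overlap with either other group at any time. Ttc26 XLOC_006427 had 19.9 and 26.1 CPM in anterior fragments, 13.9 and 19.9 CPM in posterior fragments and 19.7 and 31.5 CPM in controls at 3 hpb. At 3 dpb XLOC_006427 had 26.3 and 33.8 CPM in anterior fragments, 17.7 and 21.8 CPM in posterior fragments and 23.7 and 23.1 CPM in controls. At 6 dpb XLOC_006427 had 29.3 and 54.7 CPM in anterior fragments, 18.4 and 29.0 CPM in posterior fragments and 29.0 and 58.4 CPM in controls. Anterior and posterior libraries were separate at each time. Ttc26 XLOC_020135 had 21.3 and 16.1 CPM in anterior fragments, 14.4 and 11.5 CPM in posterior fragments and 22.6 and 17.0 CPM in controls at 3 hpb. At 3 dpb XLOC_020135 had 19.7 and 20.2 CPM in anterior fragments, 11.3 and 13.1 CPM in posterior fragments and 16.1 and 15.8 CPM in controls. At 6 dpb XLOC_020135 had 29.9 and 42.8 CPM in anterior fragments, 18.3 and 24.8 CPM in posterior fragments and 27.4 and 48.7 CPM in controls. Again the posterior libraries stood apart from both other groups at all times.

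In these 3 loci each posterior library was below the anterior and the control library of its replicate throughout. With the block within each time point their log2 fold changes at 6 dpb were -0.80, -0.83 and -0.78 in posterior over control, in that order, and 0.76, 0.79 and 0.75 in anterior over posterior. All passed in that fit (adjusted p of 0.0368 to 0.0443 over controls and of 0.0187 to 0.0239 over posterior fragments, edgeR) and in neither comparison with a common block. XLOC_020135 was also called in anterior over posterior fragments at 3 dpb in that fit (0.72, adjusted p = 0.0398).

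The other 11 Ttc26 loci, all at lower counts, had medians of -0.81 in anterior and -0.71 in posterior fragments over controls at 3 hpb, and of 0.22 and 0.05 at 6 dpb. Ttc26 XLOC_066771 had 6.39 and 5.95 CPM in anterior fragments, 6.74 and 6.22 CPM in posterior fragments and 9.53 and 11.96 CPM in controls at 3 hpb. At 3 dpb XLOC_066771 had 13.1 and 8.63 CPM in anterior fragments, 10.1 and 10.8 CPM in posterior fragments and 11.1 and 11.6 CPM in controls. At 6 dpb XLOC_066771 had 14.9 and 11.5 CPM in anterior fragments, 9.93 and 13.1 CPM in posterior fragments and 12.1 and 10.4 CPM in controls. Both fragments stood below the controls at 3 hpb and the posterior ones at 3 dpb. Ttc26 XLOC_039213, which overlaps XLOC_039214, had 1.34 and 1.73 CPM in anterior fragments, 1.55 and 2.39 CPM in posterior fragments and 2.71 and 4.24 CPM in controls at 3 hpb. At 3 dpb XLOC_039213 had 2.13 and 2.71 CPM in anterior fragments, 1.82 and 2.24 CPM in posterior fragments and 1.72 and 2.96 CPM in controls. At 6 dpb XLOC_039213 had 4.35 and 2.21 CPM in anterior fragments, 3.61 and 3.20 CPM in posterior fragments and 4.00 and 1.85 CPM in controls. Its fragment libraries too lay below the controls at 3 hpb without overlap. Ttc26/Zw10 XLOC_049476 had 1.41 and 1.28 CPM in anterior fragments, 1.60 and 2.47 CPM in posterior fragments and 2.15 and 4.05 CPM in controls at 3 hpb. At 3 dpb Ttc26/Zw10 had 2.94 and 2.55 CPM in anterior fragments, 2.92 and 3.13 CPM in posterior fragments and 3.26 and 2.72 CPM in controls. At 6 dpb Ttc26/Zw10 had 4.28 and 1.91 CPM in anterior fragments, 3.67 and 3.62 CPM in posterior fragments and 3.65 and 2.11 CPM in controls. The anterior libraries were the lowest of 3 hpb, and the groups were mixed later. These 3 loci were called lower in anterior fragments than in controls at 3 hpb with the block within each time point (-0.80, -1.15 and -1.14, adjusted p = 0.0453, 0.0224 and 0.0400 by edgeR). Ttc26 XLOC_007151 had 1.41 and 0.904 CPM in anterior fragments, 0.848 and 0.597 CPM in posterior fragments and 2.46 and 1.93 CPM in controls at 3 hpb. At 3 dpb XLOC_007151 had 2.70 and 1.28 CPM in anterior fragments, 2.28 and 1.79 CPM in posterior fragments and 2.98 and 1.29 CPM in controls. At 6 dpb XLOC_007151 had 2.14 and 0.352 CPM in anterior fragments, 1.85 and 0.210 CPM in posterior fragments and 1.71 and 0.198 CPM in controls. At 3 hpb its posterior libraries were the lowest and its controls the highest, without overlap. It was called lower in posterior fragments than in controls there in the same fit (-1.60 ± 0.38, adjusted p = 0.0403 by edgeR).

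**Figure D4:**
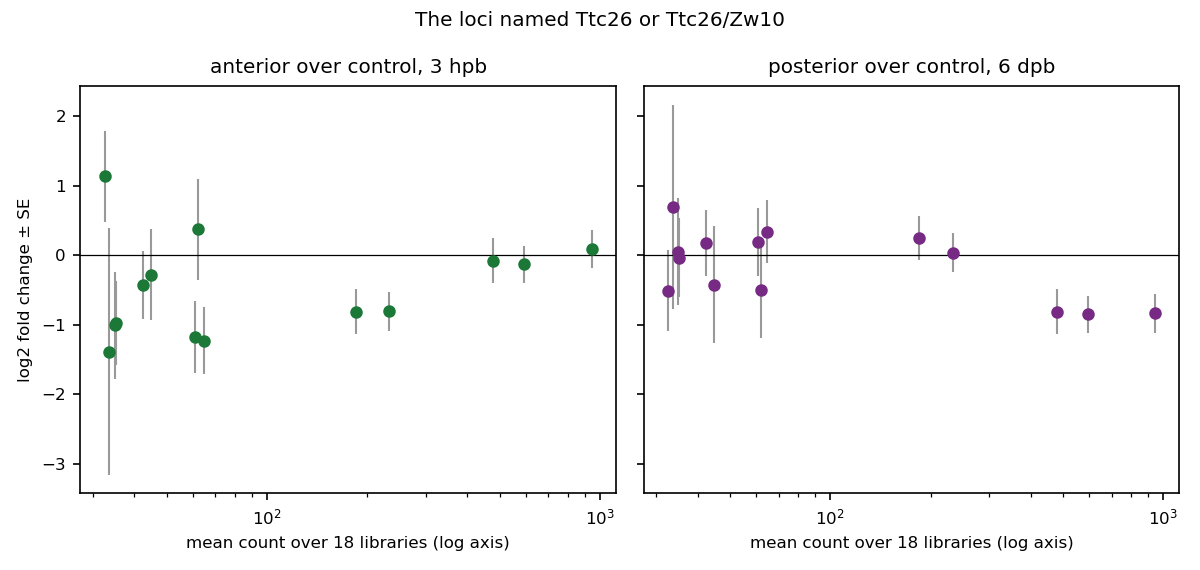
Log2 fold change with SE (vertical axis) of the 14 loci named Ttc26 or Ttc26/Zw10 against their mean count over 18 libraries (log horizontal axis), for anterior over control at 3 hpb and posterior over control at 6 dpb. The 3 loci of at least 400 counts lay at -0.85 to -0.81 in posterior fragments at 6 dpb, and the others between -0.51 and 0.70.

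The IFT-A loci had medians of 0.22, 0.17 and 0.02 in anterior over control, -0.30, -0.30 and -0.73 in posterior over control and 0.44, 0.53 and 0.76 in anterior over posterior. In posterior fragments 12 of the 14 lay below their controls at all 3 times. WDR35 (IFT121) and WDR19 (IFT144) are subunits of the complex, and Wdr35 has 3 loci. Wdr35 XLOC_027457 had 88.5 and 88.1 CPM in anterior fragments, 64.5 and 70.0 CPM in posterior fragments and 66.2 and 85.9 CPM in controls at 3 hpb. At 3 dpb XLOC_027457 had 60.4 and 106 CPM in anterior fragments, 38.1 and 70.3 CPM in posterior fragments and 53.3 and 89.4 CPM in controls. At 6 dpb XLOC_027457 had 76.0 and 132 CPM in anterior fragments, 44.9 and 67.0 CPM in posterior fragments and 74.9 and 128 CPM in controls. At 6 dpb its posterior libraries lay below all others. Wdr35 XLOC_056213 had 19.7 and 20.9 CPM in anterior fragments, 13.3 and 18.1 CPM in posterior fragments and 15.8 and 21.4 CPM in controls at 3 hpb. At 3 dpb XLOC_056213 had 17.1 and 30.2 CPM in anterior fragments, 10.8 and 16.7 CPM in posterior fragments and 15.4 and 21.0 CPM in controls. At 6 dpb XLOC_056213 had 12.2 and 33.7 CPM in anterior fragments, 7.01 and 15.6 CPM in posterior fragments and 12.5 and 34.5 CPM in controls. Here replicate 2 of the posterior fragments stood above replicate 1 of the other groups at 6 dpb. Both loci passed at 6 dpb with the block within each time point, in posterior over control (-0.84 ± 0.18 and -0.99 ± 0.20, adjusted p = 0.0294 and 0.0213 by edgeR) and in anterior over posterior (0.87 ± 0.18 and 0.96 ± 0.20, adjusted p = 0.00873 and 0.00807 by edgeR). The common block gave adjusted p of 0.312 and 0.353 for the first comparison and 0.107 and 0.174 for the second.

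Wdr19 XLOC_069611 had 30.2 and 109.6 CPM in anterior fragments, 22.1 and 71.8 CPM in posterior fragments and 38.1 and 71.7 CPM in controls at 3 hpb. At 3 dpb Wdr19 had 53.3 and 96.5 CPM in anterior fragments, 34.5 and 71.3 CPM in posterior fragments and 46.9 and 72.7 CPM in controls. At 6 dpb Wdr19 had 55.0 and 96.4 CPM in anterior fragments, 36.3 and 45.8 CPM in posterior fragments and 52.6 and 89.3 CPM in controls. Its replicates differed by more than the groups at 3 hpb, and its posterior libraries lay below all others at 6 dpb. IFT122 is another core subunit. Ift122/Ift122Ap XLOC_042487 had 19.9 and 17.4 CPM in anterior fragments, 10.6 and 12.9 CPM in posterior fragments and 12.2 and 16.3 CPM in controls at 3 hpb. At 3 dpb XLOC_042487 had 15.4 and 21.1 CPM in anterior fragments, 9.43 and 14.3 CPM in posterior fragments and 13.8 and 18.9 CPM in controls. At 6 dpb XLOC_042487 had 12.4 and 22.9 CPM in anterior fragments, 7.07 and 12.5 CPM in posterior fragments and 11.0 and 23.9 CPM in controls. Anterior and posterior libraries overlapped at 6 dpb alone. Ift122Ap XLOC_045166, which overlaps another expressed locus, had 38.3 and 30.2 CPM in anterior fragments, 23.2 and 21.1 CPM in posterior fragments and 26.6 and 31.7 CPM in controls at 3 hpb. At 3 dpb XLOC_045166 had 29.3 and 41.6 CPM in anterior fragments, 16.1 and 25.8 CPM in posterior fragments and 26.2 and 33.1 CPM in controls. At 6 dpb XLOC_045166 had 27.0 and 44.3 CPM in anterior fragments, 15.6 and 25.5 CPM in posterior fragments and 24.97 and 46.9 CPM in controls. Its anterior and posterior libraries were separate at all times. The anterior library exceeded the posterior library of its replicate in all 3 loci at every time. At 6 dpb these loci passed in anterior over posterior fragments with the block within each time point (0.83 for Wdr19, 0.84 and 0.80 for the IFT122 loci, adjusted p = 0.0456, 0.0183 and 0.0218 by edgeR), and not with a common block (0.294, 0.177 and 0.232). At 3 dpb Ift122Ap XLOC_045166 and Wdr35 XLOC_056213 passed in that fit too (0.77 and 0.77, adjusted p = 0.0391 and 0.0372 by edgeR).

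Ift122h XLOC_006606 ran the other way: it had 6.13 and 5.42 CPM in anterior fragments, 5.46 and 4.26 CPM in posterior fragments and 11.3 and 8.20 CPM in controls at 3 hpb. At 3 dpb Ift122h had 11.7 and 7.00 CPM in anterior fragments, 9.85 and 8.89 CPM in posterior fragments and 9.52 and 7.35 CPM in controls. At 6 dpb Ift122h had 11.9 and 8.55 CPM in anterior fragments, 10.3 and 11.0 CPM in posterior fragments and 7.62 and 7.20 CPM in controls. All fragment libraries lay below both controls at 3 hpb and above both at 6 dpb. It was called lower at 3 hpb in both fragments with the block within each time point: the log2 fold change was -0.74 ± 0.23 in anterior fragments (adjusted p = 0.0362 by edgeR), while in posterior fragments it fell by 1.00 on the log2 scale (SE 0.23, adjusted p = 0.0403 by edgeR). The change of its posterior effect between 3 hpb and 6 dpb, 1.53 ± 0.32, passed in the same fit (adjusted p = 0.0277 by edgeR, 0.284 with a common block). Ift140, Ttc21b-2 and the remaining loci of Ift122Ap, Wdr19 and Wdr35 were called in no comparison. Ift140 XLOC_071576, which overlaps the higher Ift140 XLOC_071572, had 2.94 to 11.8 CPM.

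The BBS loci had medians of -0.09, 0.26 and -0.03 in anterior over control, -0.56, -0.14 and -0.55 in posterior over control and 0.44, 0.35 and 0.58 in anterior over posterior. BBS7, BBS8, BBS1, BBS5, BBS2 and BBS9 are parts of the BBSome, and BBS6 is a chaperonin-like protein that helps to assemble it in human cells. Bbs6 XLOC_075780 (scaffold 8905, 9856 to 19917, + strand) had 11.2 and 9.04 CPM in anterior fragments, 17.2 and 11.0 CPM in posterior fragments and 20.5 and 21.8 CPM in controls at 3 hpb. At 3 dpb XLOC_075780 had 18.9 and 13.5 CPM in anterior fragments, 18.4 and 9.66 CPM in posterior fragments and 17.5 and 11.4 CPM in controls. At 6 dpb XLOC_075780 had 14.2 and 10.5 CPM in anterior fragments, 14.5 and 12.1 CPM in posterior fragments and 11.6 and 12.3 CPM in controls. Both fragments were below the controls at 3 hpb, and the groups overlapped later. Bbs6 XLOC_076663 had 11.9 and 7.01 CPM in anterior fragments, 20.7 and 8.35 CPM in posterior fragments and 24.4 and 18.3 CPM in controls at 3 hpb. At 3 dpb XLOC_076663 had 13.8 and 11.0 CPM in anterior fragments, 12.3 and 10.4 CPM in posterior fragments and 13.3 and 8.93 CPM in controls. At 6 dpb XLOC_076663 had 8.90 and 15.2 CPM in anterior fragments, 9.21 and 15.6 CPM in posterior fragments and 7.67 and 15.8 CPM in controls. Here the anterior libraries alone stood apart from the controls at 3 hpb. XLOC_075780 was called lower in anterior fragments at 3 hpb in both fits (-1.09 ± 0.28, adjusted p = 0.0418 by edgeR, 0.00736 with the block within each time point). That call was lost without replicate 2 of the controls (adjusted p = 0.245 by edgeR) and without either anterior library (0.127 and 0.129). XLOC_076663, at -1.22 ± 0.24, passed only with the block within each time point (adjusted p = 0.00412 by edgeR, against 0.181 with a common block).

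Bbs5 XLOC_005861, which overlaps another expressed locus, had 11.4 and 21.8 CPM in anterior fragments, 9.42 and 16.0 CPM in posterior fragments and 21.5 and 28.6 CPM in controls at 3 hpb. At 3 dpb Bbs5 had 21.3 and 34.2 CPM in anterior fragments, 15.5 and 24.0 CPM in posterior fragments and 17.7 and 26.4 CPM in controls. At 6 dpb Bbs5 had 21.8 and 32.2 CPM in anterior fragments, 14.0 and 22.3 CPM in posterior fragments and 20.1 and 32.0 CPM in controls. The posterior libraries were below the controls without overlap at 3 hpb. It was lower at 3 hpb in both fragments with the block within each time point (-0.65 ± 0.19 in anterior and -1.02 ± 0.19 in posterior fragments, adjusted p = 0.0285 and 0.0197 by edgeR), against 0.0879 and 0.120 with a common block.

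Bbs7 XLOC_026991 had 17.5 and 35.9 CPM in anterior fragments, 10.2 and 22.7 CPM in posterior fragments and 21.4 and 36.5 CPM in controls at 3 hpb. At 3 dpb XLOC_026991 had 24.7 and 41.1 CPM in anterior fragments, 18.1 and 30.1 CPM in posterior fragments and 20.5 and 33.2 CPM in controls. At 6 dpb XLOC_026991 had 25.3 and 27.0 CPM in anterior fragments, 15.1 and 16.8 CPM in posterior fragments and 23.3 and 34.7 CPM in controls. The posterior libraries were separate from both other groups at 6 dpb alone. Bbs7 XLOC_001585, which also overlaps an expressed locus, had 18.1 and 24.8 CPM in anterior fragments, 10.4 and 15.8 CPM in posterior fragments and 21.0 and 22.6 CPM in controls at 3 hpb. At 3 dpb XLOC_001585 had 23.9 and 25.4 CPM in anterior fragments, 16.4 and 19.8 CPM in posterior fragments and 20.3 and 20.9 CPM in controls. At 6 dpb XLOC_001585 had 17.8 and 25.3 CPM in anterior fragments, 11.4 and 14.4 CPM in posterior fragments and 17.2 and 30.2 CPM in controls. Its posterior libraries were separate from both other groups at all times. With the block within each time point both loci passed in anterior over posterior fragments at 3 hpb (0.72 and 0.72) and 6 dpb (0.71 and 0.72) and in posterior over control at 6 dpb (-0.84 and -0.83), with adjusted p of 0.0334 to 0.0443 by edgeR. XLOC_026991 also passed in posterior over control at 3 hpb (-0.88, adjusted p = 0.0354 by edgeR), and 0 of these calls were made with a common block.

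Bbs1 XLOC_005388 had 42.7 and 28.0 CPM in anterior fragments, 29.6 and 18.7 CPM in posterior fragments and 39.7 and 36.6 CPM in controls at 3 hpb. At 3 dpb Bbs1 had 36.7 and 44.9 CPM in anterior fragments, 30.4 and 33.3 CPM in posterior fragments and 32.0 and 34.8 CPM in controls. At 6 dpb Bbs1 had 33.1 and 60.5 CPM in anterior fragments, 19.6 and 32.5 CPM in posterior fragments and 25.2 and 59.1 CPM in controls. Anterior and posterior libraries were separate at 3 and 6 dpb. Bbs8 XLOC_009869 had 17.4 and 29.8 CPM in anterior fragments, 14.2 and 26.8 CPM in posterior fragments and 17.8 and 32.2 CPM in controls at 3 hpb. At 3 dpb Bbs8 had 20.4 and 41.2 CPM in anterior fragments, 18.9 and 29.3 CPM in posterior fragments and 26.5 and 31.2 CPM in controls. At 6 dpb Bbs8 had 21.4 and 22.4 CPM in anterior fragments, 12.97 and 12.5 CPM in posterior fragments and 22.0 and 22.6 CPM in controls. The 2 posterior libraries of Bbs8 were close to each other and below the other 4 at 6 dpb. Both loci passed in anterior over posterior fragments at that time with the block within each time point (0.83 and 0.78, adjusted p = 0.0213 and 0.0296 by edgeR). Bbs9 XLOC_014119 had 9.33 and 7.16 CPM in anterior fragments, 6.55 and 5.97 CPM in posterior fragments and 3.32 and 5.79 CPM in controls at 3 hpb. At 3 dpb Bbs9 had 6.73 and 5.51 CPM in anterior fragments, 3.76 and 4.41 CPM in posterior fragments and 4.41 and 4.77 CPM in controls. At 6 dpb Bbs9 had 8.35 and 5.48 CPM in anterior fragments, 5.28 and 3.62 CPM in posterior fragments and 6.88 and 4.42 CPM in controls. All fragment libraries were above both controls at 3 hpb. It was the BBS locus called higher in anterior fragments over controls at 3 hpb (0.86 ± 0.28, adjusted p = 0.0427 by edgeR with the block within each time point). Bbs2 XLOC_047803, the highest of the BBS loci, had 116 and 152 CPM in anterior fragments, 120.4 and 143 CPM in posterior fragments and 113 and 163 CPM in controls at 3 hpb. At 3 dpb Bbs2 had 152 and 163 CPM in anterior fragments, 146 and 156 CPM in posterior fragments and 146 and 161 CPM in controls. At 6 dpb Bbs2 had 155 and 146 CPM in anterior fragments, 152 and 149 CPM in posterior fragments and 139 and 154 CPM in controls. Its groups overlapped at each time. The remaining loci of Bbs1, Bbs2, Bbs8 and Bbs9 and all 3 loci of Bbs4 were called in no comparison.

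None of the transition zone loci was called. Their medians were -0.02, 0.09 and -0.01 in anterior over control, -0.22, -0.22 and -0.10 in posterior over control and 0.32, 0.22 and 0.12 in anterior over posterior, and 0 of 17 were called in any of the 9 comparisons of a fragment in either edgeR fit. Scaled by library size alone, the value of 6 dpb turned to 0.04 in posterior over control and to -0.03 in anterior over posterior. At an unadjusted p under 0.05, 2 of 17 were lower in posterior fragments than in controls at 3 hpb (5.7% of all loci) and 1 was higher in anterior than in posterior fragments at 6 dpb (7.41% of all loci). At an adjusted p under 0.05, a common block called 2.31% of all loci higher and 4.76% lower in anterior over control at 3 hpb. The block within each time point called 12.5% and 14.5% there. In posterior over control at 3 dpb the common block called 0% of all loci in both directions. Mks1L, named after the basal gate protein MKS1, had 37.1 and 28.4 CPM in anterior fragments, 29.3 and 21.8 CPM in posterior fragments and 44.9 and 37.6 CPM in controls at 3 hpb. At 3 dpb Mks1L had 52.8 and 38.0 CPM in anterior fragments, 39.7 and 32.3 CPM in posterior fragments and 47.2 and 31.4 CPM in controls. At 6 dpb Mks1L had 50.6 and 45.3 CPM in anterior fragments, 36.9 and 30.3 CPM in posterior fragments and 46.2 and 31.8 CPM in controls. All its fragment libraries lay below the controls at 3 hpb, and the posterior ones below the anterior ones at 6 dpb. The 3 loci of Cep290, whose product links membrane and microtubules at the ciliary base, had between 1.36 and 12.1 CPM over the 18 libraries.

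The ARL loci had medians of 0.26, 0.14 and -0.04 in anterior over control, 0.08, 0.14 and -0.24 in posterior over control (-0.24 at 3 hpb when scaled by library size alone) and 0.08, 0.17 and 0.16 in anterior over posterior. Arl3 XLOC_078463, which overlaps another expressed locus, had 95.3 and 63.4 CPM in anterior fragments, 83.2 and 50.2 CPM in posterior fragments and 67.6 and 31.5 CPM in controls at 3 hpb. At 3 dpb Arl3 had 23.0 and 43.0 CPM in anterior fragments, 20.2 and 37.6 CPM in posterior fragments and 20.0 and 39.7 CPM in controls. At 6 dpb Arl3 had 24.1 and 11.0 CPM in anterior fragments, 22.3 and 13.01 CPM in posterior fragments and 25.3 and 16.2 CPM in controls. Its groups overlapped at each time. In anterior over control at 3 hpb it had 0.70 ± 0.55 with a common block and passed only with the block within each time point (0.75 ± 0.20, adjusted p = 0.0191 by edgeR, against 0.476 with a common block). Arl3 XLOC_033060 was not called.

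Neighbouring lists of ciliary genes were counted for comparison. FoxJ1, the transcription factor that turns on motile cilium genes in vertebrates, had 253 and 336 CPM in anterior fragments, 147 and 214 CPM in posterior fragments and 120 and 114 CPM in controls at 3 hpb. At 3 dpb FoxJ1 had 113 and 197 CPM in anterior fragments, 49.3 and 115 CPM in posterior fragments and 87.8 and 153 CPM in controls. At 6 dpb FoxJ1 had 111 and 213 CPM in anterior fragments, 41.1 and 77.1 CPM in posterior fragments and 84.4 and 174 CPM in controls. All fragment libraries of 3 hpb lay above both controls, and FoxJ1 was called higher in anterior fragments over controls there (1.27 ± 0.30, adjusted p = 0.0272 by edgeR) and over posterior fragments at 6 dpb (1.45 ± 0.30, adjusted p = 0.0164 by edgeR). The list of ciliary transcription factors was drawn by gene name, and a ciliary role of its loci in this larva, Rfx6L among them, was not tested. Of the other loci on this list, Rfx3 XLOC_039223 had log2 fold changes of 0.69 at 3 hpb in anterior over control and 0.89 at 6 dpb in anterior over posterior. Rfx3 XLOC_066915 had 0.88 and 0.72, Rfx3 XLOC_066917 0.66 and 0.59, E2f4 -0.84 and -0.33, and Rfx6L -0.55 and -3.06. Their adjusted p was 0.0535 or more by edgeR. With the block within each time point, Rfx3 XLOC_039223 and XLOC_066915 passed in both comparisons, E2f4 in the first and Rfx6L in the second.

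The 103 loci of the motile axoneme (dynein arms, radial spokes, tektins and the like) had medians of 0.73, 0.38 and 0.16 in anterior over control, against 0.10, 0.21 and -0.03 in the members, and scaling by library size alone gave 0.30 at 3 hpb for the axoneme, against -0.30 for the members. In posterior over control they had 0.08 (-0.32 when scaled by library size alone), -0.41 and -0.79, and in anterior over posterior 0.68, 0.80 and 0.95. Of these, 6 were called higher in anterior fragments over controls at 3 hpb, and 19 higher and 1 lower in anterior over posterior fragments at 6 dpb with a common block (2.31% of all loci in the first comparison, 1.6% and 2.73% in the second). There were 42, and 59 and 1, with the block within each time point (12.5%, and 7.23% and 5.68% of all loci). Another 39 loci of ciliogenesis outside the family had 0.04 (-0.36 when scaled by library size alone), 0.14 and 0.05 in anterior over control, -0.34, -0.27 and -0.33 in posterior over control and 0.39, 0.40 and 0.33 in anterior over posterior. The 14 loci of cytoplasmic dynein 1, dynactin and kinesin 1 had -0.03 in anterior over posterior at 6 dpb and 0.08 in posterior over control. The differences between these lists were not tested.

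**Figure D5:**
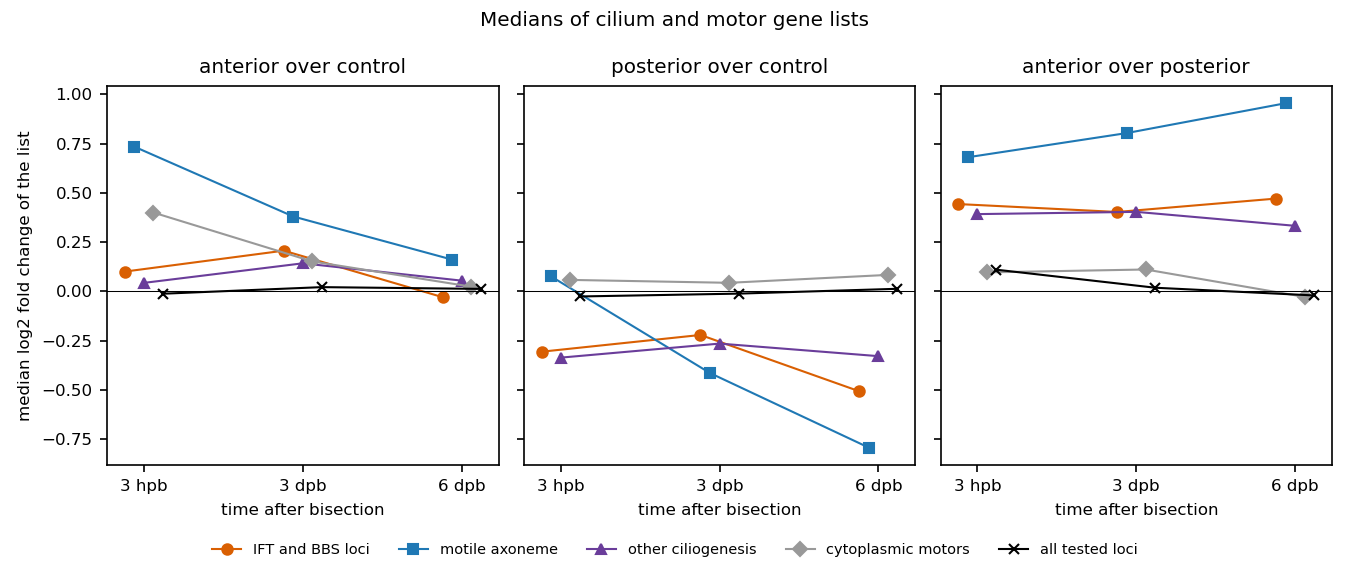
Median log2 fold change (vertical axis) of 5 lists of loci by time after bisection (horizontal axis) in anterior over control, posterior over control and anterior over posterior fragments. In posterior over control at 6 dpb the axoneme list stood at -0.79 and the IFT and BBS loci at -0.51, and in anterior over posterior at 6 dpb at 0.95 and 0.47.

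Members varied together to different degrees across the 18 libraries. As a description, each member was compared with the mean of the members under other names. Log2 CPM was first standardised, each locus by its own mean and spread, and a joined name such as Ift122/Ift122Ap counted as a name of its own. The Pearson r had a median of 0.49, and 45 of 91 exceeded 0.5, where 13.1% of all other tested loci did so against the mean of all members. The libraries share replicate and fragment differences, so these values hold both. The medians were 0.81 in IFT-A, 0.71 in motors, 0.68 in BBS, 0.49 in IFT-B, 0.18 in ARL and 0.16 in the transition zone. Bbs1 XLOC_010204 (0.92), Ift88 (0.91) and Ttc21b-2 XLOC_019205 (0.89) were the closest to the mean, and Arl3 XLOC_078463 (-0.34), Bbs6 XLOC_075780 (-0.29) and Ift140 XLOC_071576 (-0.29) the farthest. Among named loci outside the family, the 5 with the pattern most like the mean of the members were Hypp XLOC_025714, Kiaa1751L/Crhbp XLOC_041449, C12orf56L XLOC_061742, C6orf170L XLOC_036961 and C2orf63L XLOC_045923, with r between 0.92 and 0.93 over 18 libraries.

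Between the ages of the uncut controls, the median of the members was -0.01 for 3 dpb over 3 hpb and 0.13 for 6 dpb over 3 dpb, and 0 were called in either comparison by edgeR, where 0% of all loci were called at the first step, and 0.0126% higher and 0.0472% lower at the second. At an unadjusted p under 0.05 there were 5 higher and 0 lower at the first step and 8 and 2 at the second (1.03% and 1.48%, and 2.88% and 2.7% of all loci). By the 2-fold rule there were 0 at the first step (0.519% and 0.862% of all loci) and 3 higher and 2 lower at the second (1.9% and 2.13%). DESeq2 called 0 members at the first step (0% of all loci higher and 0.0189% lower), and 2 higher and 1 lower at the second (0.248% and 0.349%). The change of the effect of bisection between 3 hpb and 6 dpb was tested as an interaction. In anterior fragments 0 members were called (6 higher and 4 lower at an unadjusted p under 0.05, and 0 by DESeq2, which called 0.239% of all loci higher and 0.563% lower), with 0% of all loci higher and 0.0189% lower. Of all loci 4.63% were higher and 5.03% lower at the unadjusted p, and by the 2-fold rule 4 members and 4.02% of all loci were higher and 3 members and 4.5% lower. In posterior fragments 0 were called with a common block (0% of all loci in both directions, 1 higher and 7 lower at an unadjusted p under 0.05, and 1 and 2 by DESeq2, which called 0.503% and 1.05% of all loci). Of all loci 5.32% were higher and 5.82% lower at the unadjusted p, and by the 2-fold rule 1 member and 4.87% of all loci were higher and 7 members and 5.17% lower. With the block within each time point 1 was higher and 4 were lower in posterior fragments (2.08% and 3.29% of all loci). The 4 were Kif3AL XLOC_067845 (-1.57), Kif3AL XLOC_067840 (-1.55), Dync2h1 XLOC_013115 (-1.31) and Dync2h1 XLOC_042691 (-1.17), with adjusted p of 0.0234 to 0.0499 by edgeR, and the locus that was higher was Ift122h.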

How the data were processed

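RNA of 18 libraries (9 groups, 2 replicates each) was sequenced and, per the submitters' processing notes and the study's methods, handled with CASAVA 1.8, TopHat2 2.0.12, SAMtools, Cufflinks 2.2.1, HTSeq 0.6.1p1 and edgeR 3.10.5. The values used here are the raw read counts per locus that the authors deposited for each library. A deposited table of the authors pairs locus and gene names, and its log2 fold changes from their own comparisons were not used. Reads outside loci (2.37% to 3.65% of a library) or ambiguous (6.12% to 8.74%) stayed out of the library sizes, and no column of other samples was present. Whether the counting used strand is not given in the sources used here.

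The 31798 loci that exceeded 3 CPM in 2 or more libraries were tested in edgeR 4.0.16 (R 4.3.3, limma 3.58.1) with TMM scaling (factors 0.677 to 1.22), a group factor and the replicate number as a block, by the two-sided quasi-likelihood test. Log2 CPM used a prior count of 2. The pairing comes from the replicate numbers in the labels and from the data, where deviations from the group means correlated in every pair of libraries of the same number (r of 0.18 to 0.92). A fit with the block within each time point, one with no block, library size scaling, DESeq2 size factors, DESeq2 1.42.0, other filters, a fit per time point, 1 locus per name and leaving out each library were the alternatives. The common dispersion was 0.341 with no block, 0.146 with a common block and 0.0475 with the block within each time point. In data simulated for anterior over control at 3 hpb (31798 loci), 50 loci were changed by 1 on the log2 scale, 50 by 2 and 100 by 4. The first fit recovered 0%, 22% and 78% of these and called 4 unchanged loci. More loci were called in the real comparison than were changed in the simulation. The adjustment of p was therefore stricter in the simulation, and its shares do not carry over to the data. P-values set a group difference against the spread between pools that remains after the replicate difference is taken out. This spread is estimated over all 18 libraries, with 2 pools per group, and counting error is only a part of it. It differs between the fits, as the dispersions above show.

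Members and lists were chosen with earlier results of these data known. Values by library are given for loci called in either edgeR fit, the highest locus per length of 5 of the 6 groups and the ciliary transcription factor FoxJ1, with the markers of territory summed. The results of some members are not reported here by name. The boundary between higher and lower Ttc26 loci was set after the values were seen. Tables and figures were made with Python 3.11.15, pandas 2.3.3, numpy 2.4.6 and matplotlib 3.10.9.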

Additional observations from a re-analysis of the deposited data

Results flagged for a closer look

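The value of Dync2h1 XLOC_013115, the dynein-2 heavy chain locus, differed between anterior and posterior fragments at 6 dpb by a test of the difference itself. The log2 fold change of anterior over posterior was 1.07 ± 0.23 SE (adjusted p = 0.0224 by edgeR), and both replicates went the same way. Without 1 library at a time it ranged over 0.93 to 1.21. The call was not made with scaling by library size alone, with no filter or with no block.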

How the results depend on the processing

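The member medians in posterior over control and in anterior over posterior kept their sign at all 3 times under every alternative run. Without the second control of 6 dpb the sign changed in anterior over control at 6 dpb (0.15), between control ages of 3 and 6 dpb (-0.03) and in the change of the anterior effect (0.0043). Scaling by library size alone moved the member medians to -0.30 and 0.18 in anterior over control at 3 hpb and 3 dpb, -0.69 in posterior over control at 3 hpb, 0.46 and 0.36 in anterior over posterior at 3 and 6 dpb, and 0.27 and 0.39 in the change of the anterior and posterior effects. With 1 locus per name, anterior over posterior was 0.46 at 3 dpb and 0.61 at 6 dpb. The counts of called members moved more, and the cause was not tested. Shares of all loci are given above for both edgeR fits with a block, for DESeq2 and for the 2-fold rule. Counts under the other alternatives have no such share beside them and show nothing particular to the members. In anterior over control at 3 hpb (2 higher, 1 lower), library size alone gave 0 and 4, DESeq2 5 and 2, no filter, more than 1 CPM and no block 0 and 0, a replicate block for every time point 9 and 7, the fit per time point 1 higher, and an unadjusted p with a 2-fold change 4 lower. In posterior over control, loci lower at 3 hpb (0) were 1 by library size alone, 3 by DESeq2, 4 with a replicate block for every time point and 2 by the 2-fold rule, and at 6 dpb (0) 8 by DESeq2, 13 with that block and 6 by the 2-fold rule. In anterior over posterior, loci higher at 3 hpb (0) were 5 by DESeq2 and 5 with a replicate block for every time point, at 3 dpb (0) 4, 5 and, in the fit per time point, 15, and at 6 dpb (1) 15, 22 and 5, with 2 by DESeq2 size factors, 0 by library size alone, no filter or no block, and 4 by the 2-fold rule. In controls at 6 over 3 dpb, DESeq2 called 2 higher and 1 lower and the 2-fold rule 3 and 2. For the change of the effect, the 2-fold rule gave 4 higher and 3 lower in anterior fragments, and in posterior fragments DESeq2 gave 1 higher and 2 lower, a replicate block for every time point 1 and 4, and the 2-fold rule 1 and 7. Without 1 library at a time, calls in anterior over control at 3 hpb ranged between 0 and 1 in each direction, and the 6 dpb call in anterior over posterior was lost (0 to 0). The medians then ranged over 0.01 to 0.16, 0.10 to 0.27 and -0.15 to 0.15 in anterior over control, -0.36 to -0.28, -0.27 to -0.17 and -0.61 to -0.44 in posterior over control, 0.26 to 0.49, 0.39 to 0.43 and 0.44 to 0.56 in anterior over posterior, -0.04 to 0.11 and -0.03 to 0.22 between control ages, and -0.29 to 0.0043 and -0.29 to -0.01 in the change of the effects. The block within each time point was not run between control ages. Members averaged at least 32.6 counts, and p-values rest on 2 libraries a group.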
